A study of Mus musculus with 12 samples.

Results

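The quantity described here is the genotype difference of the IL-4 response, that is, by how much interleukin-4 (IL-4) moved each transcript further, or less far, in alveolar macrophages of Lmp7 knockout mice than in those of wild-type mice. For each probe it is (knockout M2 minus knockout M0) minus (wild-type M2 minus wild-type M0) in log2 intensity, where M0 cells were unpolarized and M2 cells had been given IL-4. A probe was kept when 3 or more of the 12 arrays detected it, that is, had a detection p under 0.05 for it. This held for 9200 of the 25697 probes on the array. Of these, 5232 were detected on all 12 arrays. A gene symbol was given for 8626 of the kept probes, covering 6563 genes, and 574 kept probes are unnamed here.

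The 4 groups were wild-type M0, wild-type M2, knockout M0 and knockout M2, each with 3 Illumina BeadArrays called a, b and c. The mice, C57Bl/6J of both genotypes, were kept specific pathogen-free and were 8 to 12 weeks old. Macrophages, the phagocytes of the airspaces, were washed out of the lungs with 8 lavages of 1 ml. The dose of IL-4 in M2 cultures was 20 ng/ml, lasting no longer than 24 h, and M0 cells received none. The labels name the knockout only by its gene, and the sources used here give neither the allele nor the number of animals behind an array. The spread between arrays of a group may therefore be technical, and the p-values measure that spread alone.

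IL-4 binding to its receptor activates JAK kinases, which phosphorylate the transcription factor STAT6. STAT6 then switches on the genes of alternative (M2) activation, among them Retnla and Arg1, and feedback inhibitors of the CIS/SOCS family such as Cish. The same cytokine turns down a part of the receptors and mediators that macrophages use in inflammation. Lmp7 is the protein of Psmb8, a catalytic subunit (beta5i) of the immunoproteasome, which immune cells use to degrade proteins and to produce peptides presented on MHC class I.

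Promoters are shown for the 2 genes whose response was called larger upward in knockout cells, Retnla and Cish, and, for contrast, for Clec4d, the named gene with the most negative difference. Capitals mark STAT sites, read as TTCNNNGAA or as the same ends with 4 bases between them. Each of these motifs is its own reverse complement, so that both strands were searched at once, and the 4-base spacer is the one STAT6 is known to prefer. The windows run from 250 bases before to 50 bases after the gene's start on the plus strand in RefSeq (GRCm38.p6), chr16:48842359-48842658 for Retnla, chr9:107296409-107296708 for Cish and chr6:123261857-123262156 for Clec4d.
Retnla: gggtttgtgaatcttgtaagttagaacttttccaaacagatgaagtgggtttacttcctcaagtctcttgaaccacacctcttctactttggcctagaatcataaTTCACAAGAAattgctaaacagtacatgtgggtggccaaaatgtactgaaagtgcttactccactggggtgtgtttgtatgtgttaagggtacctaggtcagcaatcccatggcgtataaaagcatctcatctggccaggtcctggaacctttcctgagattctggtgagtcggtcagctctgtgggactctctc
Cish: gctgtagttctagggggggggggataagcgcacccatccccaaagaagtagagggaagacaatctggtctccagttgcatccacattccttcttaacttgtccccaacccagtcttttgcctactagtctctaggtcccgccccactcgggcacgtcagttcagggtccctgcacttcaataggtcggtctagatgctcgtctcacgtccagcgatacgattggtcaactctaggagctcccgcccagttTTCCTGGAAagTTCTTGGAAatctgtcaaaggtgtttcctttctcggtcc
Clec4d: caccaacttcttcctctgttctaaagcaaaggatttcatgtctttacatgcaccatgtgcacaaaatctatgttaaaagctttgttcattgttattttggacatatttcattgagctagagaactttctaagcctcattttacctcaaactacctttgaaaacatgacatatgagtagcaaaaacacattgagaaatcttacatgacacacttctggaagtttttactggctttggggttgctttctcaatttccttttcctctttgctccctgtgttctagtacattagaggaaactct
Retnla holds 1 site with the 4-base spacer, beginning at position -145 from the start. Cish holds 2 TTCNNNGAA sites, beginning at positions 1 and 12, just inside the transcribed part. Clec4d holds neither motif. Over all 32851 windows of this length, 8.3% hold TTCNNNGAA and 6.95% hold the motif with the 4-base spacer. Of the 9 named genes past the threshold 8 had a window, and 2 more of them, Pla2g7 (position -145) and Fpr2 (position -77), hold 1 TTCNNNGAA site each. A match of letters is a description and says nothing of binding in these cells.

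The arrays differed in how many probes they detected, from 25.5% to 34.2%, and array a had the lowest share in each group. Its shares were 25.5% in knockout M2, 26.1% in knockout M0, 27.3% in wild-type M0 and 29.2% in wild-type M2 cells. All other arrays detected 30.9% or more. The 3 arrays of lowest detected share, left out in a setting below, are array a of all groups but wild-type M2. Arrays of a group correlated at 0.951 to 0.978, and 0 pairs were identical. Of the 18 alveolar macrophage markers on the array 15 were detected on 3 or more arrays, among them Siglecf, Marco, Itgax, Fabp4 and Pparg on all 12, while Car4 and Bhlhe41 were detected on none. Markers of B cells, eosinophils and red cells were not detected on 3 arrays for any gene. Of the neutrophil markers, S100a8 was detected on 12 arrays, Cxcr2 on 9, Csf3r on 4 and Camp on 3. S100a9, Retnlg, Ltf, Ngp, Mpo, Elane and Stfa1 were detected on no array. Mean S100a8 levels were 7.61, 6.58, 8.16 and 6.74 log2 units in wild-type M0, wild-type M2, knockout M0 and knockout M2 cells. For Cxcr2 the means were 5.30, 6.45, 6.84 and 8.31 in the same order. The summed linear level of the 11 neutrophil markers was 558 to 597 in wild-type M0, 478 to 561 in wild-type M2, 684 to 844 in knockout M0 and 672 to 856 in knockout M2 cells. For the 8 T cell markers it was 686 to 741, 831 to 919, 527 to 649 and 524 to 637 in the same order, so this sum was higher after IL-4 in the wild-type groups and not in the knockout groups. It moved through Il7r, which was detected on 9 arrays. Cd2 was detected on 12 arrays, with group means of 8.06 to 8.29 log2 units, and Cd8a on 2. Cd3e, Cd3d, Cd3g, Cd5 and Cd4 were detected on no array. What part these markers have in the differences below was not tested.

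Over the 9200 probes the difference of the responses had a median of -0.02 log2, with quartiles of -0.19 and 0.16, and 47.2% of probes were above 0. The fitted values ran from -2.29 to 1.5. Where a group was undetected on every array, here and below, the fitted difference rests on a background value, so its size and rank are not exact. Differences of at least 1 log2 unit were more frequent below 0, with 36 probes, than above 0, with 17. A probe was called when its limma p, adjusted by Benjamini-Hochberg over all 9200 probes, was under 0.05. By this rule 13 probes (0.141%) were called, 2 with a positive difference (0.0217%) and 11 with a negative one (0.12%). An unadjusted p under 0.05 was reached by 596 probes (6.48%), 238 of them positive (2.59%) and 358 negative (3.89%). The split of the calls moved with the scaling: median scaling gave 0 positive and 2 negative calls, and cyclic loess 0 and 11. The standard error (SE) of a difference had a median of 0.253 log2, against 0.179 for a response within 1 genotype, and the smallest difference called was 0.90 in size. For comparison, the IL-4 response itself was called for 1365 probes in wild-type cells (14.8%; 728 higher, 7.91%, and 637 lower, 6.92%). In knockout cells 1918 probes were called (20.8%; 913 higher, 9.92%, and 1005 lower, 10.9%). The genotypes differed for 57 probes in M0 cells (0.62%; 32 higher in knockout cells, 0.348%, and 25 lower, 0.272%). In M2 cells they differed for 159 (1.73%; 57 higher, 0.62%, and 102 lower, 1.11%). In these bulk samples fewer cells of a type and less RNA per cell cannot be told apart, here and in all results that follow.

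**Figure D1:**
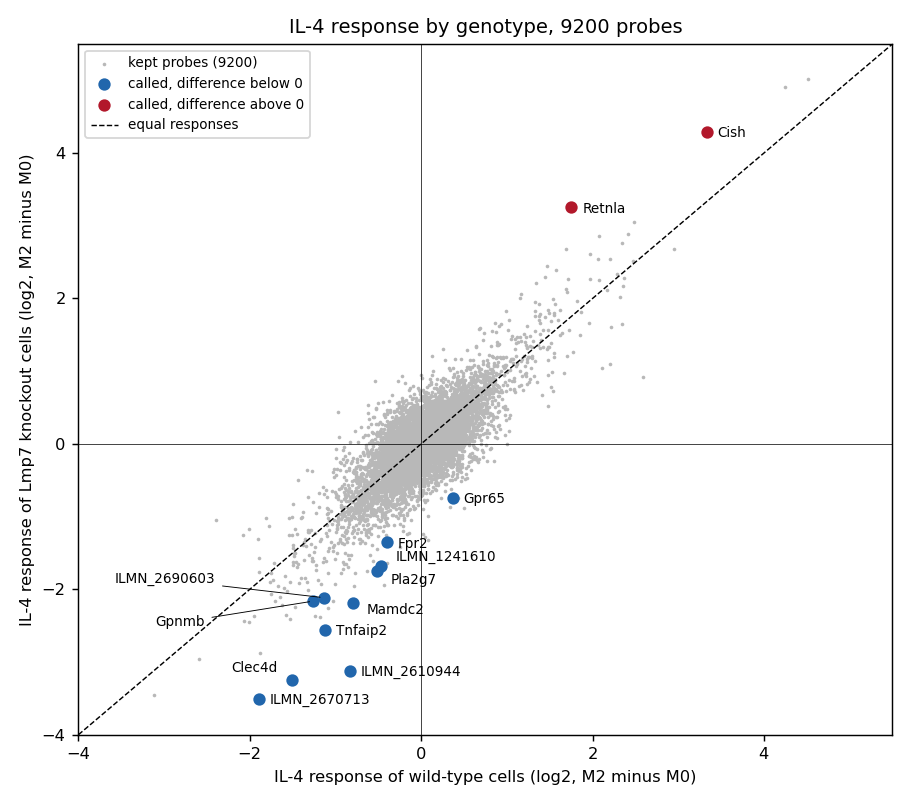
IL-4 response (log2, M2 minus M0) of wild-type cells on the x axis against that of knockout cells on the y axis for 9200 probes (grey), with the dashed line of equal responses. The 13 called probes are coloured: 11 lie below the line (blue) and 2, Retnla and Cish, above it (red).

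Both genes with a called positive difference are induced by IL-4. Retnla encodes RELM-alpha, a secreted protein of alternatively activated macrophages (chromosome 16). Its probe was undetected on all M0 arrays, where it read 4.99, 4.82 and 5.02 log2 units in wild-type and 5.07, 5.02 and 4.95 in knockout cells. After IL-4 it read 6.63, 6.41 and 7.05 in wild-type and 8.18, 8.38 and 8.25 in knockout cells, so that all 3 knockout M2 arrays lay above all wild-type M2 arrays while the M0 groups overlapped. The rise was at least 1.63-fold in wild-type and at least 4.75-fold in knockout cells. The difference of the responses was 1.5 ± 0.213 log2 (± is the SE of the model throughout; adjusted p = 0.0350), with a 95% interval of 1.03 to 1.97. In M2 cells the genotype gap was 1.57 log2.

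Cish encodes CIS, an inhibitor that cytokine receptors induce through STAT proteins and that damps their signal (chromosome 9). It too was undetected in M0 cells, with 4.98, 4.98 and 5.14 log2 units in wild-type and 5.01, 5.11 and 4.92 in knockout cells. The M2 arrays read 8.38, 8.46 and 8.25 in wild-type and 9.19, 9.41 and 9.32 in knockout cells, again without overlap. Cish rose at least 5.17-fold in wild-type and at least 9.75-fold in knockout cells. The difference was 0.96 ± 0.155 log2 (adjusted p = 0.0471), or 1.95-fold. Since both genes were at background in M0 cells of either genotype, their differences are set by the M2 levels. The STAT motifs by their starts are those in capitals above, at positions 1 and 12 in Cish and at position -145 in Retnla.

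Of the 9 named genes called, 3 with a negative difference encode receptors. Clec4d (chromosome 6) encodes a C-type lectin, MCL, that senses mycobacterial and fungal glycolipids. Its probe read 10.74, 10.55 and 10.61 log2 units in wild-type M0 and 9.40, 9.04 and 8.95 in wild-type M2 cells. Knockout arrays read 10.53, 10.29 and 10.22 without IL-4, and 6.96, 7.04 and 7.32 with it. The M0 groups lay close together without overlapping, and the knockout M2 arrays were below all others. The response of Clec4d was -1.5 log2 in wild-type cells (adjusted p = 7.13e-05) and -3.24 log2 in knockout cells (adjusted p = 1.38e-07). The difference was -1.74 ± 0.210 log2 (adjusted p = 0.0178), so the linear fold change of the fall was 3.34 times as large in knockout cells.

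Fpr2 encodes a formyl peptide receptor through which phagocytes sense bacterial peptides and resolving lipids (chromosome 17). It read 10.31, 10.17 and 10.24 in wild-type M0 and 9.88, 9.89 and 9.75 in wild-type M2 cells. Knockout arrays gave 9.96, 9.86 and 10.05 before and 8.74, 8.45 and 8.63 after IL-4. Knockout arrays were below wild-type arrays in both states, with a gap of -0.28 log2 in M0 (adjusted p = 0.435) and -1.23 log2 in M2 cells (adjusted p = 0.000138). The response was -0.40 log2 in wild-type and -1.35 log2 in knockout cells, and their difference -0.95 ± 0.154 log2 (adjusted p = 0.0471).

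Gpr65 encodes a receptor that senses extracellular protons (chromosome 12). It read 7.89, 8.04 and 7.94 in wild-type M0 and 8.29, 8.32 and 8.36 in wild-type M2 cells, against 8.13, 8.43 and 8.23 in knockout M0 and 7.43, 7.44 and 7.71 in knockout M2 cells. Gpr65 was the only called probe whose responses had opposite signs. In wild-type cells the response of 0.37 log2 was not called (adjusted p = 0.0568), and in knockout cells Gpr65 fell by 0.74 log2 (adjusted p = 0.00102). The difference was -1.10 ± 0.165 log2 (adjusted p = 0.0395). Knockout arrays were all above wild-type arrays in M0 and all below them in M2 cells.

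Pla2g7 and Mamdc2 differed from the other called probes in where the genotypes stood apart. Pla2g7 encodes a secreted lipase that breaks down platelet-activating factor (chromosome 17). It read 7.27, 7.09 and 7.23 in wild-type M0 and 8.68, 8.68 and 8.48 in knockout M0 cells. After IL-4 it read 6.75, 6.56 and 6.73 in wild-type and 6.80, 7.0 and 6.77 in knockout cells. The M0 groups were 1.42 log2 apart (adjusted p = 0.000133), and the M2 groups only 0.18 log2 (adjusted p = 0.608), although no array overlapped there either. The response of Pla2g7 was -0.52 log2 in wild-type cells (adjusted p = 0.0101) and -1.75 log2 in knockout cells (adjusted p = 1.54e-06), for a difference of -1.23 ± 0.160 log2 (adjusted p = 0.0178).

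Mamdc2 encodes an extracellular matrix proteoglycan (chromosome 19). Its probe read 5.99, 6.06 and 6.29 in wild-type M0, with 2 arrays detected, and 7.55, 7.58 and 7.87 in knockout M0 cells. After IL-4 it was undetected in both genotypes, at 5.30, 5.37 and 5.26 in wild-type and 5.36, 5.58 and 5.47 in knockout cells. The M0 gap was 1.55 log2 (adjusted p = 0.000133). The fall was at least 1.06-fold in wild-type and at least 2.96-fold in knockout cells, and the difference was -1.39 ± 0.176 log2 (adjusted p = 0.0178). With M2 values at background in both genotypes, this difference is set by the M0 levels.

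Gpnmb and Tnfaip2 have several kept probes each, and they did not give 1 value. Gpnmb encodes a glycoprotein of lysosomes and the cell surface in macrophages (chromosome 6). Its called probe, ILMN_1236420, read 8.98, 8.99 and 8.95 in wild-type M0, 7.70, 7.75 and 7.69 in wild-type M2, 8.92, 8.85 and 9.02 in knockout M0 and 6.62, 6.81 and 6.87 in knockout M2 cells. The M0 groups overlapped and the knockout M2 arrays were lowest, with a difference of -0.90 ± 0.142 log2 (adjusted p = 0.0460). The other 3 probes of Gpnmb gave -1.14 (adjusted p = 0.0846), -0.55 (adjusted p = 0.528) and -0.38 log2 (adjusted p = 0.754). The one at -0.55 was the brightest, with M0 values of 12.7 to 12.98 near the highest normalized value of 13.3, where differences may be compressed.

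Tnfaip2 is a gene induced by tumour necrosis factor (chromosome 12). Its called probe, ILMN_2841290, read 8.24, 7.77 and 8.12 in wild-type M0 and 6.96, 7.0 and 6.80 in wild-type M2 cells. It read 7.92, 7.82 and 8.04 in knockout M0 cells and was undetected in knockout M2 cells, at 5.30, 5.11 and 5.70. The M0 groups overlapped and the M2 groups did not. Tnfaip2 fell by 1.12 log2 in wild-type cells and at least 3.55-fold in knockout cells, with a difference of -1.43 ± 0.234 log2 (adjusted p = 0.0471). Its other probes gave -1.16 (adjusted p = 0.0601) and -0.47 log2 (adjusted p = 0.759), the second of them undetected in knockout M2 cells as well.

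The other 4 called probes are unnamed here, and the probe of smallest p was one of them. ILMN_2610944 read 8.42, 8.64 and 8.62 in wild-type M0, 7.81, 7.52 and 7.87 in wild-type M2 and 8.58, 8.48 and 8.64 in knockout M0 cells. In knockout M2 cells it was undetected on all 3 arrays, at 5.11, 5.49 and 5.75. The M0 groups overlapped, with a gap of 0.01 log2. The probe fell by 0.83 log2 in wild-type cells (adjusted p = 0.00546) and at least 5.54-fold in knockout cells. Its fitted difference was -2.29 ± 0.228 log2 (adjusted p = 0.00510), a size that depends on the background values of the knockout M2 arrays.

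ILMN_2670713 averaged 10.23 ± 0.217 (SD, n = 3) in wild-type M0 cells and read 8.22, 8.27 and 8.53 in wild-type M2, 9.25, 9.82 and 9.51 in knockout M0 and 6.09, 5.85 and 6.12 in knockout M2 cells, where 1 array was detected. Its difference was -1.61 ± 0.237 log2 (adjusted p = 0.0393). ILMN_1241610 had a difference of -1.22 ± 0.188 and ILMN_2690603 one of -0.98 ± 0.154 log2 (adjusted p = 0.0460 for both). All 4 unnamed probes were lower after IL-4 in both genotypes and lowest on the knockout M2 arrays, with no overlap between the M2 groups. The 9 named calls lay on chromosomes 6, 12 and 17 (2 each) and 9, 16 and 19 (1 each). Psmb8 itself is on chromosome 17, which holds 5.0% of the kept named probes.

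**Figure D2:**
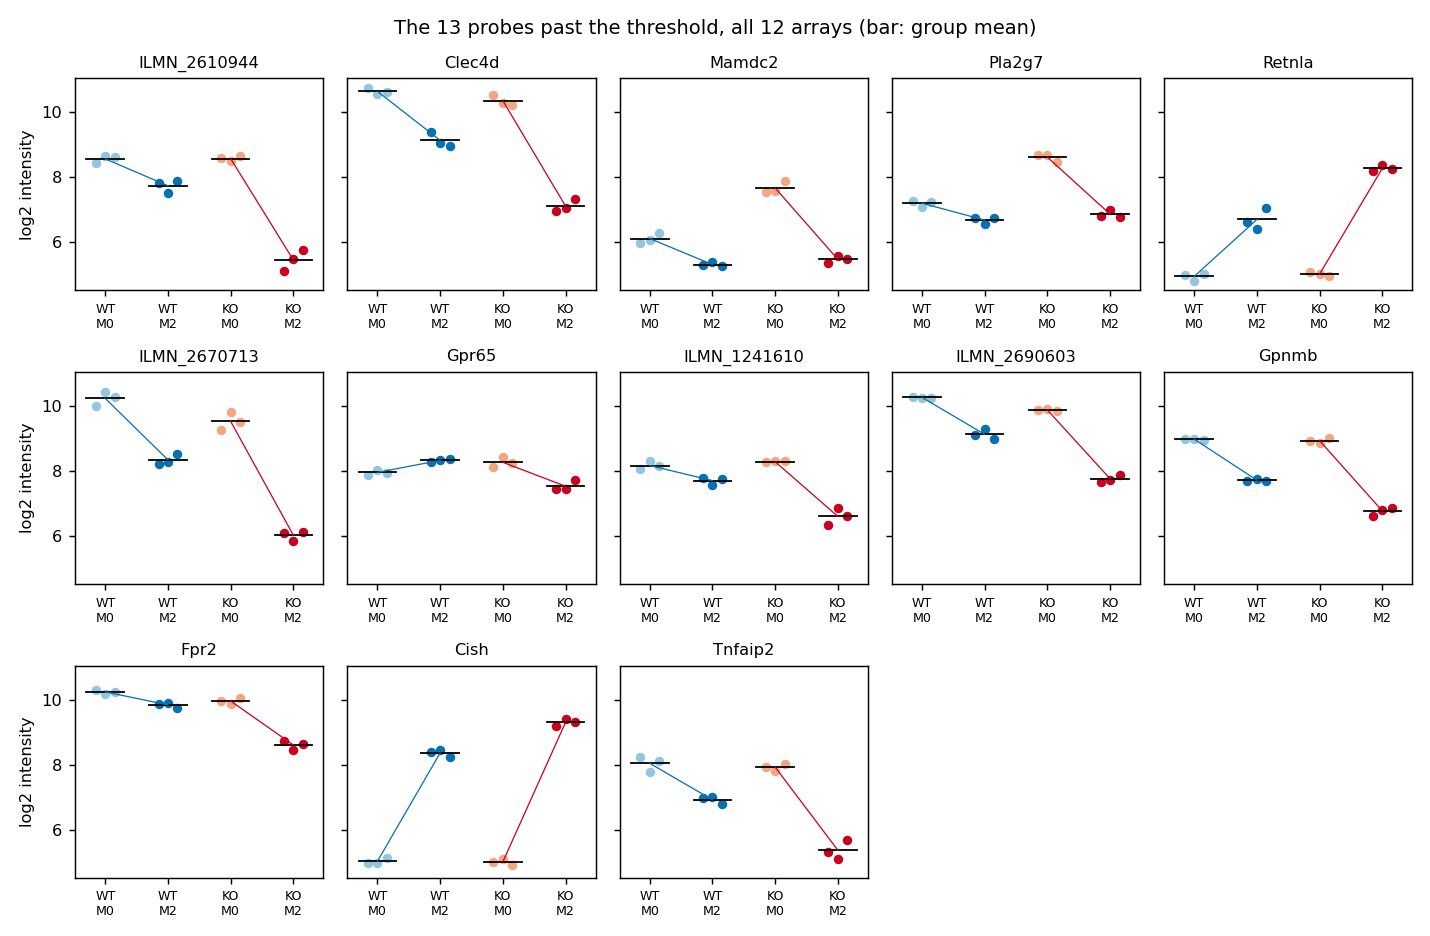
Log2 intensity on each of the 12 arrays for the 13 called probes (points), with group means (bars) and a line from M0 to M2 in wild-type (WT, blue) and knockout (KO, red) cells. In 11 panels the genotypes lie closer together in M0 than in M2 cells, and in Mamdc2 and Pla2g7 they are apart in M0 and close in M2.

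A difference of responses equals the genotype gap in M2 cells minus that in M0 cells, so each call can be split into its gaps. The gap was larger in M2 than in M0 cells for 11 of the 13 called probes, Mamdc2 and Pla2g7 being the other two. Among the 596 probes with an unadjusted p under 0.05 it was larger in M2 cells for 385 (64.6%), and among all kept probes for 51.6%. By shape, 12 of the 13 responded in the same direction in both genotypes and by more in knockout cells, 10 of them downward and 2 upward. None responded in the same direction by less, and Gpr65 responded in opposite directions. Of the 596 probes, 260 (43.6%) responded in the same direction by more in knockout cells, 63 (10.6%) in the same direction by less, and 273 (45.8%) in opposite directions. Over all kept probes these shares were 43.3%, 30.3% and 26.4%. These counts describe probes chosen for a difference of responses and carry no test of their own.

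**Figure D3:**
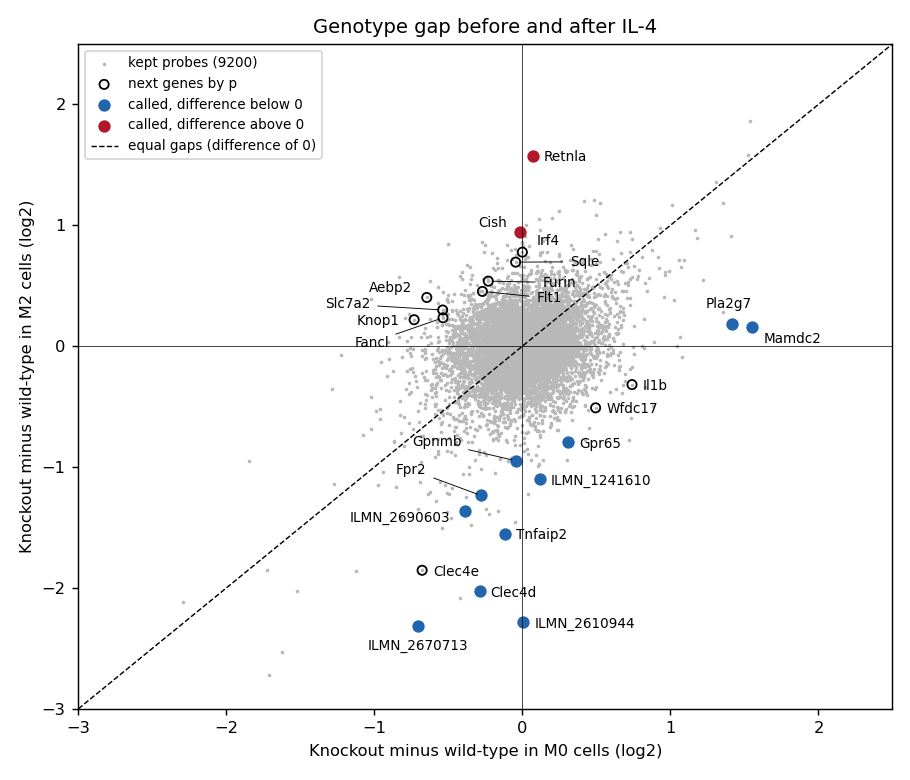
Genotype gap (knockout minus wild-type, log2) in M0 cells on the x axis and in M2 cells on the y axis for 9200 probes (grey), with the dashed line of equal gaps. Called probes (filled) are mostly far from the line along the M2 axis, at M2 gaps down to -2.32 log2, while Mamdc2 and Pla2g7 lie at M0 gaps of 1.55 and 1.42 log2. Open circles are the next named genes by p.

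Below the threshold, the next named genes with a negative difference were Wfdc17, Clec4e and Il1b. Wfdc17, a small secreted protein with a whey acidic protein domain, read 6.73, 7.15 and 6.82 in wild-type M0 and 7.86, 7.89 and 7.96 in wild-type M2 cells. It read 7.37, 7.36 and 7.45 in knockout M0 and 7.36, 7.28 and 7.55 in knockout M2 cells. Wfdc17 rose in wild-type cells by 1.01 log2 (adjusted p = 0.000375), the response in knockout cells was 0.00 log2 (adjusted p = 0.992), and the difference was -1.0 ± 0.179 log2 (adjusted p = 0.0846). Clec4e encodes Mincle, the lectin that pairs with the product of Clec4d. It read 8.15, 7.91 and 8.09 before and 7.97, 7.78 and 7.67 after IL-4 in wild-type cells. Knockout cells gave 7.52, 7.09 and 7.52 before and 5.81, 5.90 and 6.14 after it, with 1 knockout M2 array detected. The knockout arrays were below the wild-type arrays in both states, and the difference was -1.18 ± 0.211 log2 (adjusted p = 0.0846).

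Il1b encodes interleukin-1 beta, a cytokine of inflammation. It was undetected in wild-type M0 cells, at 5.59, 5.47 and 5.61, and read 7.68, 7.59 and 7.72 in wild-type M2 cells. In knockout cells it read 6.16, 6.19 and 6.54 in M0, with 2 arrays detected, and 7.41, 7.12 and 7.51 in M2. The order of the genotypes thus changed from M0 to M2 with no overlap in either state. Il1b rose at least 3.18-fold in wild-type cells and by 1.05 log2 in knockout cells, with a difference of -1.06 ± 0.193 log2 (adjusted p = 0.0888).

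Among positive differences the next gene was Slc7a2, a transporter that brings arginine into the cell, where arginase uses it. Slc7a2 read 9.41, 9.35 and 9.18 in wild-type M0, 10.29, 10.29 and 10.31 in wild-type M2, 8.92, 8.59 and 8.81 in knockout M0 and 10.66, 10.56 and 10.56 in knockout M2 cells. Knockout arrays were lower in M0 and higher in M2, and the difference was 0.84 ± 0.159 log2 (adjusted p = 0.106). Irf4, a transcription factor of alternative activation, was undetected in M0 cells of both genotypes and read 7.51, 7.58 and 7.95 in wild-type M2 and 8.39, 8.41 and 8.57 in knockout M2 cells. It rose at least 3.21-fold and at least 5.40-fold, with a difference of 0.78 ± 0.184 log2 (adjusted p = 0.292). The rest of the 10 positive genes of smallest p were Aebp2, a partner of Polycomb repressive complex 2 (1.05 log2), the nucleolar protein Knop1 (0.95), the proprotein convertase Furin (0.77), the ubiquitin ligase Fancl of DNA crosslink repair (0.77), Sqle of cholesterol synthesis (0.74) and the VEGF receptor Flt1 (0.72). Their adjusted p was 0.140 to 0.292, so none was called. For Aebp2 and Knop1 the value is that of the gene's probe of smallest p. Each of these genes also has a kept probe of higher mean, whose difference is not given here.

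Gene lists were described with 1 probe a gene, the kept probe of highest mean. Over the 6563 genes 3104 differences were positive and 3459 negative, with a median of -0.02 log2, and 422 (6.43%) had an unadjusted p under 0.05, 164 of them positive (2.5%) and 258 negative (3.93%). The counts below are to be read against these shares. They are over list members that passed the detection filter, which favours genes high in some group.

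The M2 effectors and markers had 19 of 28 listed genes kept, 12 with a positive and 7 with a negative difference and a median of 0.33 log2. The differences ran from -0.94 to 1.5 log2. Retnla was called, and 7 positive and 1 negative gene had an unadjusted p under 0.05. Beside Retnla and Flt1 the positive ones included Ch25h, which makes 25-hydroxycholesterol (0.90 ± 0.263 log2, adjusted p = 0.482). Ch25h was nevertheless lower in knockout cells in both states. Its gap was -1.85 log2 in M0 (adjusted p = 0.000574) and -0.95 log2 in M2 cells (adjusted p = 0.0276). Others were Arg1 (0.56 ± 0.189, adjusted p = 0.642), the chemokine Ccl17 (0.66 ± 0.270, adjusted p = 0.738) and the ribonuclease Rnase2a (0.50 ± 0.150, adjusted p = 0.492). Arg1, arginase 1, was undetected in M0 cells of both genotypes and read 6.76, 6.45 and 6.85 in wild-type M2 against 7.2, 7.39 and 7.14 in knockout M2 cells, without overlap. Chil3, a chitinase-like lectin, had a difference of -0.12 log2 (95% interval -0.43 to 0.19), with M2 values of 13.1 to 13.2 close to the highest normalized value. Mrc1, the mannose receptor, had one of -0.05 log2 (95% interval -0.36 to 0.25). With the strictest filter, a detection p under 0.01 on each of the 12 arrays, which drops Retnla and Arg1, the list's median was -0.04 log2 over 11 genes.

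IL-4 signalling genes, the path from receptor to nucleus, had 19 of 23 kept and a median of 0.03 log2, which changed sign in 3 of 24 alternative settings. Cish was called, and Socs6, another member of the CIS/SOCS family, had a difference of 0.91 ± 0.270 log2 (adjusted p = 0.492). Stat6 had one of 0.02 log2 (95% interval -0.41 to 0.46) and Socs1 one of 0.03 log2 (95% interval -0.71 to 0.76), and both changed sign with median scaling. Of 11 kept transcription regulators of alternative activation, 4 were positive. Irf4, Nfil3, a basic leucine zipper factor (0.81 ± 0.222 log2, adjusted p = 0.420), and Ppargc1b, a coactivator of mitochondrial genes (0.48 ± 0.185 log2, adjusted p = 0.724), had an unadjusted p under 0.05. The list's median was -0.09 log2 (-0.021 without knockout M2 array a or wild-type M0 array a, -0.033 without knockout M0 array a). It turned positive, at 0.027 log2, without the 3 arrays of lowest detected share.

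In the cholesterol synthesis list, the path from acetyl-CoA to cholesterol with its regulators, all 15 kept genes of 25 listed had a positive difference, with a median of 0.41 log2 and 7 at an unadjusted p under 0.05. None was called. Sqle, squalene epoxidase, read 8.26, 8.18 and 8.45 in wild-type M0, 7.58, 7.71 and 7.88 in wild-type M2, 8.18, 8.21 and 8.36 in knockout M0 and 8.58, 8.35 and 8.33 in knockout M2 cells. The wild-type M2 arrays were below all others, and the 3 other groups overlapped. The difference of Sqle was 0.74 ± 0.176 log2 (adjusted p = 0.292). The sterol dehydrogenase Nsdhl had one of 0.64 ± 0.166 log2 (adjusted p = 0.385) and the lanosterol synthase Lss one of 0.79 ± 0.248 log2 (adjusted p = 0.528). The median response of the list was -0.27 log2 in wild-type and 0.17 log2 in knockout cells. With median scaling 12 of the 15 were positive and 3 had an unadjusted p under 0.05. That count was 4 without knockout M0 array a, knockout M2 array b, wild-type M0 array c, wild-type M2 array a or wild-type M2 array b. The list's median was 0.32 to 0.46 log2 over all settings run.

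Genes of cholesterol efflux, many of them targets of the oxysterol receptor LXR, had 2 positive and 9 negative differences among 11 kept, with a median of -0.25 log2. The median was -0.089 log2 without knockout M0 array c, -0.12 log2 without wild-type M2 array a and -0.043 log2 over the 4 genes that pass the strictest filter, and it was -0.14 and -0.38 log2 with offsets of 50 and 1. Abca1, the pump that loads cholesterol onto lipoproteins, read 8.22, 7.96 and 7.87 in wild-type M0, 7.95, 8.18 and 8.17 in wild-type M2, 7.94, 8.08 and 7.90 in knockout M0 and 5.92, 7.13 and 6.88 after IL-4 in knockout cells. These last 3 arrays were below all others and far from each other, and the difference was -1.41 ± 0.353 log2 (adjusted p = 0.340). Apoe, the apolipoprotein of macrophages, had a difference of -1.07 ± 0.357 log2 (adjusted p = 0.619).

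Respiratory chain and ATP synthase subunits, which carry oxidative phosphorylation, had 50 positive and 9 negative differences among 59 kept genes, with a median of 0.11 log2. Only 4 had an unadjusted p under 0.05, all positive, and 0 were called by limma. Ndufa8, a subunit of complex I, had the smallest p of them (0.53 ± 0.151 log2, adjusted p = 0.459). IL-4 raised 36 of the 59 past the threshold in wild-type and 52 in knockout cells, beside 537 (8.18%) and 663 (10.1%) of all 6563 genes. With median scaling 41 of the 59 differences were positive, their median was 0.058 log2 and 0 had an unadjusted p under 0.05, while 10 had one with an intensity trend and robust variances. Of 23 genes of the unfolded protein response 17 were positive, with a median of 0.13 log2 and 1, the secreted factor Manf (0.50 ± 0.166 log2, adjusted p = 0.608), at an unadjusted p under 0.05. Their median was 0.066 log2 with median scaling and 0.070 log2 without wild-type M0 array c.

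Of 24 chemokine ligands 10 were kept, 8 of them negative, with a median of -0.33 log2 (-0.51 without wild-type M2 array c). An unadjusted p under 0.05 was reached by 5 negative genes (3 to 5 with a single array left out) and 1 positive gene. The highest difference in the list was 0.66 log2. Ccl4, a chemokine of inflammation, read 6.02, 6.00 and 6.05 in wild-type M0, 8.61, 8.75 and 8.48 in wild-type M2, 5.29, 5.30 and 6.21 in knockout M0 and 6.91, 6.03 and 6.64 on the knockout M2 arrays. In M0 cells it was detected on 2 wild-type arrays and 1 knockout array, so its M0 values are near background. Ccl4 rose in both genotypes, by 2.59 log2 in wild-type cells (adjusted p = 7.13e-05) and 0.93 log2 in knockout cells (adjusted p = 0.0246), and the M2 groups did not overlap. Its difference of -1.67 ± 0.363 log2 missed the threshold (adjusted p = 0.216). Cxcl16, a scavenger and ligand of CXCR6, had one of -0.70 ± 0.241 log2 (adjusted p = 0.664).

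In the interleukin-1 family and its inflammasome partners 6 of 8 kept genes were negative, with a median of -0.37 log2 (-0.13 over the 2 genes that pass the strictest filter) and 3 at an unadjusted p under 0.05. These were Il1b, its antagonist Il1rn (-0.94 ± 0.361 log2, adjusted p = 0.724) and Casp1, the protease that matures it (-0.36 ± 0.142 log2, adjusted p = 0.736). Of 14 kept chemoattractant and metabolite-sensing receptors 10 were negative, 2 of them called (Gpr65 and Fpr2). An unadjusted p under 0.05 was reached by 5 negative receptors and 1 positive one, and the highest difference was 0.83 log2. C5ar1, the receptor of complement C5a, read 5.33, 6.32 and 5.45 in wild-type M0, with 1 array detected, and 6.66, 6.94 and 6.75 in knockout M0 cells. It was undetected in M2 cells of both genotypes, and its difference was -1.17 ± 0.306 log2 (adjusted p = 0.385). The median of these receptors was -0.20 log2, -0.0064 log2 without knockout M2 array a, -0.12 log2 without knockout M0 array a and -0.35 log2 without knockout M2 array c.

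Among 12 kept C-type lectin receptors 9 were negative, and the 3 at an unadjusted p under 0.05 were Clec4d, Clec4e and Clec4n, which encodes Dectin-2 (-0.58 ± 0.160 log2, adjusted p = 0.420). The median of this list was -0.08 log2, and -0.15 log2 with median scaling and -0.12 log2 without wild-type M0 array a. NF-kB components and targets had 12 negative of 16 kept genes and a median of -0.15 log2, with 1 at an unadjusted p under 0.05, Tnfaip2. Single arrays moved this median, to -0.030 log2 without knockout M0 array c, -0.043 without wild-type M0 array a, -0.063 without knockout M0 array b, -0.083 without wild-type M2 array a and -0.096 without knockout M2 array a. Over the 4 genes that pass the strictest filter it was -0.010 log2, with 2 of them positive. Other lists of immune receptors and responses were about even: 8 of 16 Toll-like receptors and adaptors were positive (median 0.0026 log2), 5 of 10 interferon response genes (-0.06), 3 of 6 Fc receptors (-0.05) and 7 of 11 scavenger receptors (0.10). With median scaling 5 of the 16 Toll-like genes and 4 of the 11 scavenger receptors were positive. Lists without a member at an unadjusted p under 0.05 were the immunoproteasome and antigen processing genes (8 kept), the constitutive proteasome (35), the Fc receptors, glycolysis (13), the cell cycle (25), ribosome biogenesis (23) and the alveolar macrophage identity markers (15). Their medians ran from -0.11 log2 for the cell cycle to 0.04 log2 for ribosome biogenesis and the constitutive proteasome. The remaining lists are drawn in the plot by list.

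**Figure D4:**
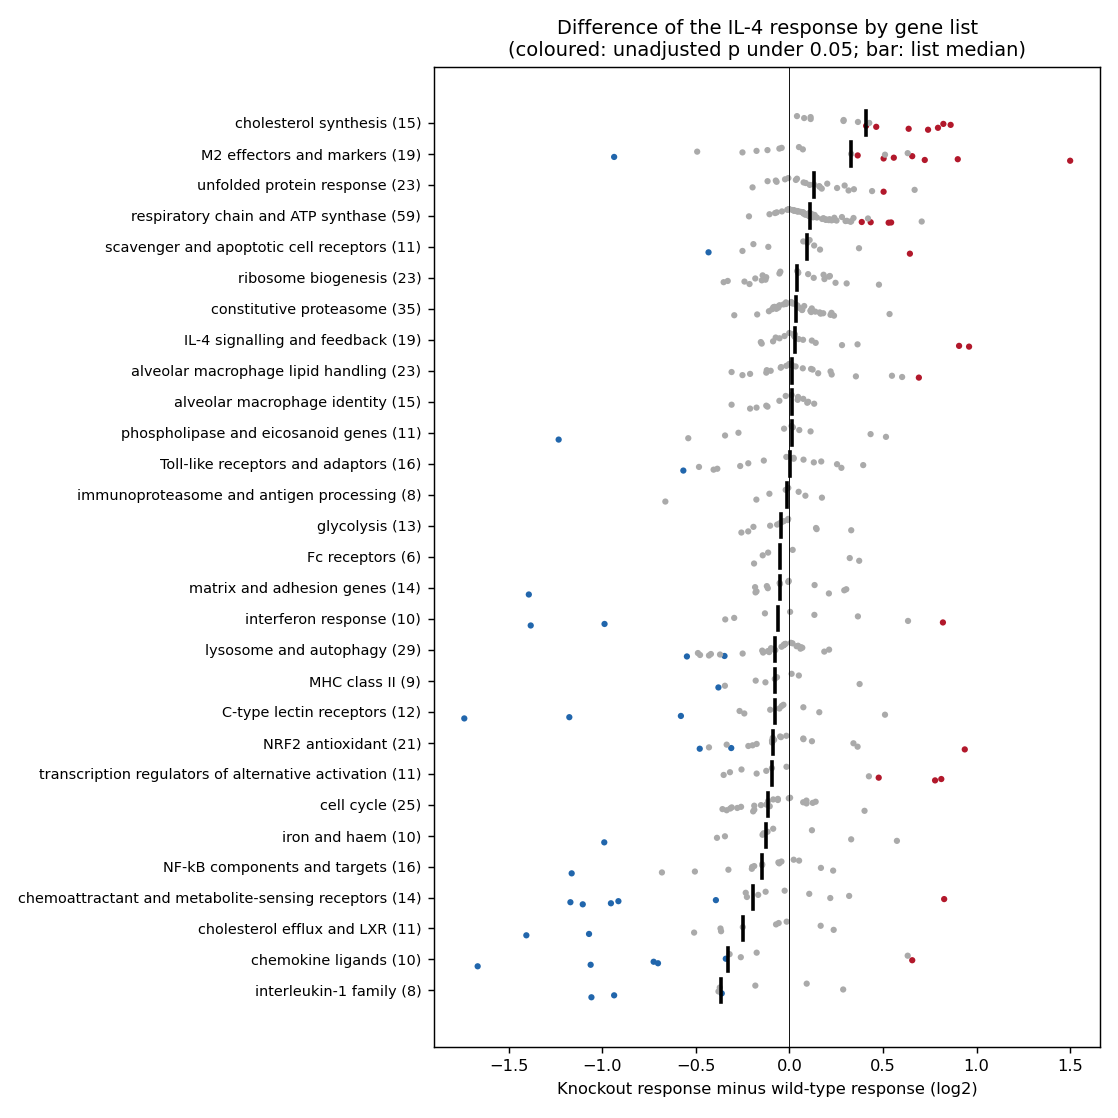
Difference of the IL-4 response (knockout minus wild-type, log2, x axis) of each kept gene in 29 lists, with the number of kept genes in brackets and a bar at the list's median. Coloured points have an unadjusted p under 0.05. Cholesterol synthesis (median 0.41) and M2 effectors (0.33) lie furthest to the right, and chemokine ligands (-0.33) and the interleukin-1 family (-0.37) furthest to the left.

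The proteasome genes themselves showed no called difference of response. Psmb8, the deleted gene, read 7.82, 7.53 and 8.04 in wild-type M0 and 7.96, 7.78 and 7.75 in wild-type M2 cells and was undetected on all 6 knockout arrays, at 5.36 to 5.79. Knockout levels were lower at least 3.43-fold in M0 and at least 3.32-fold in M2 cells, so each array's genotype matched its label. The sources used here do not say whether its probe lies in the deleted part. The difference of response was -0.18 log2 for Psmb9, the beta1i subunit (95% interval -0.54 to 0.19), and -0.02 log2 for Psmb10, the beta2i subunit (95% interval -0.31 to 0.27). For Psmb5, the constitutive counterpart of Psmb8, it was -0.05 log2 (95% interval -0.47 to 0.37). The values of Psmb10 and Psmb5 changed sign with some single arrays left out, and that of Psmb10 with cyclic loess.

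All 13 calls kept their sign in each setting that tested them, and most lost the call in some. ILMN_2610944 kept it in 21 of 22 settings, with differences from -2.83 to -1.55 log2, and in all 12 that leave out a single array. Clec4d kept it in 20 of 24, losing it without knockout M0 array b, knockout M2 array a or wild-type M0 array c. Mamdc2 and Pla2g7 kept it in 14 of 23 each. Mamdc2 lost it without knockout M0 array b, knockout M2 array a, wild-type M0 array a or any wild-type M2 array. Pla2g7 lost it without knockout M0 array a or b, knockout M2 array a, wild-type M0 array a or c, or wild-type M2 array a or c. With a single array left out, Retnla was called only without array b of wild-type M0 or array c of wild-type M2 cells, and ILMN_2670713 only without array a of knockout M0 or array b of wild-type M0 cells. Gpr65 and Tnfaip2 were then called only without array c of knockout M2, and ILMN_1241610 only without array b of knockout M2 cells. ILMN_2690603, Gpnmb, Fpr2 and Cish lost the call whichever array was left out, with differences from -1.05 to -0.89, -0.95 to -0.83, -1.02 to -0.88 and 0.90 to 1.02 log2. Without the 3 arrays of lowest detected share 0 probes were called by limma, although 711 then had an unadjusted p under 0.05.

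**Figure D5:**
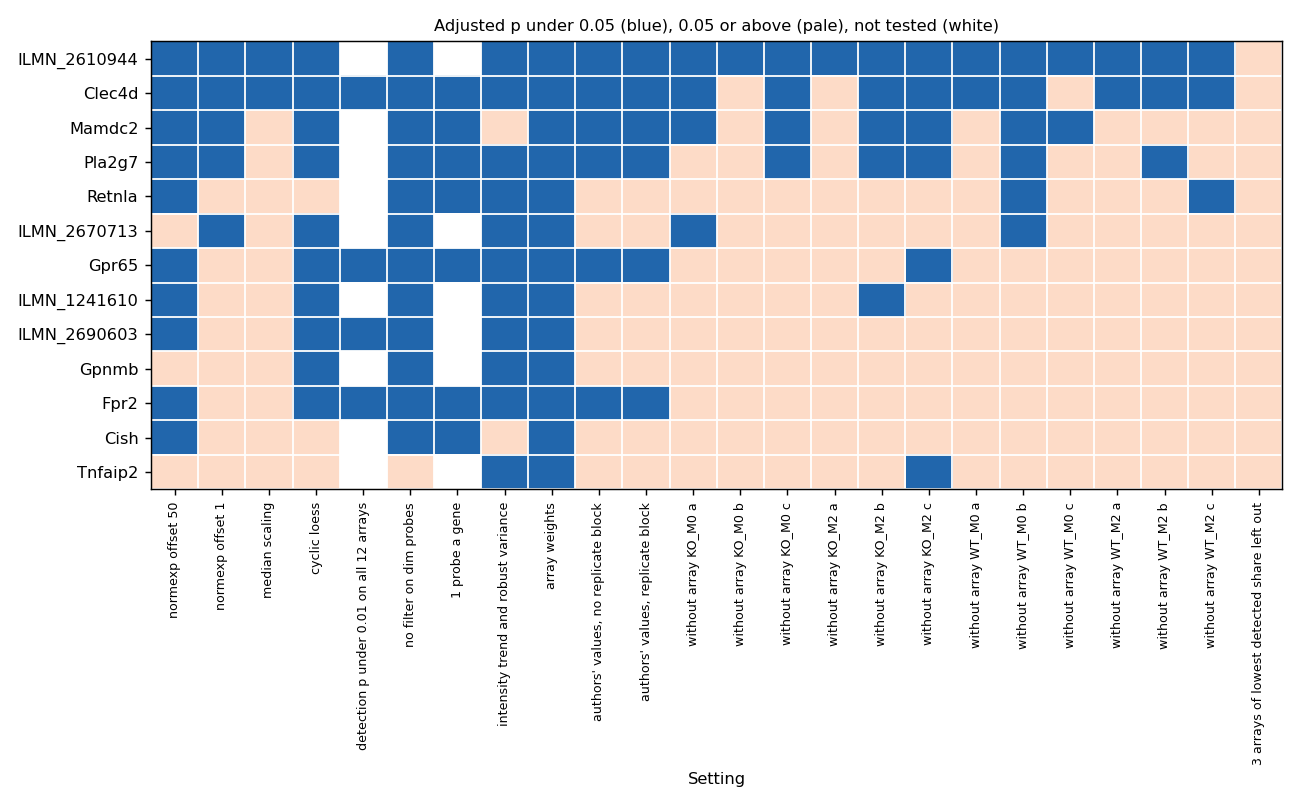
Whether each of the 13 called probes (y axis) had an adjusted p under 0.05 (blue) or not (pale) in each of 24 alternative settings (x axis); white cells were not tested. ILMN_2610944 was called in 21 of 22 settings that tested it, Clec4d in 20 of 24 and Tnfaip2 in 3 of 22.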

How the data were processed

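RNA of 12 samples was measured on Illumina BeadArrays. Per the file headers, the deposited table is not normalized and holds an intensity and a detection p-value for each probe and array. These deposited intensities lay between -72 and 12659, and values below 0 show that some background was already taken off. Scanner software is not given in the sources used here. Column names of this table give the group but not the replicate number, so letters a, b and c follow column order and pair nothing. In a second deposited table, of intensities processed by the authors, columns do carry replicate numbers. It was an alternative, each of whose 12 columns ranked most like an array of its own group (lowest rank correlation 0.99987).

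In limma 3.58.1 (R 4.3.3), normexp correction took its background from the detection p-values and added an offset of 16. Quantile normalization and log2 followed. All contrasts came from 1 fit of 4 group means by lmFit and eBayes, with 8 residual degrees of freedom and two-sided p-values. The Benjamini-Hochberg adjustment ran over 9200 probes, and every adjusted p in the text is from this model. "Undetected" means a detection p of 0.05 or above on every array of a group. The fold is then a bound, taken against the higher of the probe's own value and the lowest detected value of each array. Probes were named through the platform annotation: 23978 probes had 1 symbol, 0 several and 1719 none, and 23962 matched RefSeq by Entrez ID.

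Named genes are the called probes and their genes' other probes, the 10 genes of smallest p in each direction, up to 3 genes of smallest p from each list with at least 5 kept genes, and a fixed set of proteasome and M2 genes. The members, the gene lists and this rule were chosen with earlier results of these data known. Alternatives changed the offset, the scaling, the filter, the probe choice, the variance model and the arrays used. The steps were tested on simulated data. The number of arrays limits the precision of all values. Python 3.11.15 with matplotlib 3.10.9 made the plots.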

Additional observations from a re-analysis of the deposited data

Results flagged for a closer look

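The 13 probes below had IL-4 responses that differed between the genotypes by the test of the difference itself. Those with a response further up in knockout cells were Retnla (1.5 log2) and Cish (0.96). Those with a response further down were the unnamed probes ILMN_2610944 (-2.29), ILMN_2670713 (-1.61), ILMN_1241610 (-1.22) and ILMN_2690603 (-0.98), and Clec4d (-1.74), Tnfaip2 (-1.43), Mamdc2 (-1.39), Pla2g7 (-1.23), Gpr65 (-1.10), Fpr2 (-0.95) and Gpnmb (-0.90). Groups of 3 arrays are too small for a test of single outlying arrays, and none was made.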

How the results depend on the processing

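The 13 called probes kept their sign in all settings that tested them. The count of calls moved more. It was 5 (0 positive, 5 negative) with a normexp offset of 1 and 2 (0 and 2) with median scaling, which also moved the median of all differences from -0.02 to -0.10 log2. Cyclic loess gave 0 positive calls and 11 negative ones. With a detection p under 0.01 on all 12 arrays it was 7 (1 and 6) of 3968 probes, a filter under which only 4 of the 13 could be tested, and all 4 were called. With 1 probe a gene it was 7 (2 and 5), where 7 of the 13 were tested. With an intensity trend and robust variances it was 32 (8 and 24), 11 of them among the 13. The authors' values gave 6 (0 and 6) without and 7 (0 and 7) with a replicate block, and the block raised the probes with an unadjusted p under 0.05 from 554 to 752. In the authors' values the deviations of same-numbered samples correlated at -0.0227 to 0.393 (median 0.148, 12 of 18 over 0.1), and those of different numbers had a median of -0.0888 (3 of 36 over 0.1). Of 36 comparisons of a sample with another group, 27 were best with its own number. This is a hint of pairing from the data, but the labels name no shared source and not every same-numbered pair was over 0.1, so the replicate block stayed an alternative. Leaving out 1 array gave 1 to 9 calls, 0 to 1 positive and 1 to 8 negative, with the fewest without array b of knockout M0 or array a of knockout M2 cells and the most without array b of wild-type M0 cells. Without the 3 arrays of lowest detected share limma called 0 probes (0 and 0), with 711 at an unadjusted p under 0.05. The cause of these moves was not tested, beyond the fewer probes or arrays that some settings hold.

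Signs turned only for genes near 0. Stat6 was -0.10 and Socs1 -0.032 log2 with median scaling, Mrc1 was 0.0011 and Psmb10 0.017 with cyclic loess, and Socs1 was -0.041 without the 3 arrays of lowest detected share. With single arrays left out, values ran from -0.091 to 0.13 for Stat6, -0.23 to 0.21 for Socs1, -0.066 to 0.022 for Psmb10 and -0.15 to 0.057 for Psmb5, each on both sides of 0. Probes near background limit the differences of genes undetected in 1 or more groups.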

Other observations

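Some genes whose difference is not given above had sizeable but uncalled ones, given here as values. In the interferon response list, the nucleic acid sensor Zbp1 had a difference of -1.38 ± 0.324 log2 (adjusted p = 0.277) and the guanylate-binding protein Gbp2 one of -0.99 ± 0.296 log2 (adjusted p = 0.492), while the ubiquitin-like protein Isg15 had 0.82 ± 0.255 log2 (adjusted p = 0.528). Zbp1 was detected on 2 wild-type M0 and 2 knockout M2 arrays, Gbp2 on 1 and 2 of these, and Isg15 on 2 knockout M0 arrays. In their other groups all 3 arrays detected them. Among antioxidant genes, the glutathione transferase Gsta3 had 0.94 ± 0.292 log2 (adjusted p = 0.528), being detected on all 3 wild-type M0 arrays, on 1 knockout M0 array and on no M2 array. Flvcr2, a relative of the haem exporter, had a response of -1.88 log2 in wild-type and of -2.87 log2 in knockout cells, and a difference of -0.99 ± 0.334 log2 (adjusted p = 0.636). H2-Aa, an MHC class II chain, had a genotype gap of 1.09 log2 in M0 cells, one of 0.71 log2 after IL-4 and a difference of -0.38 ± 0.152 log2 (adjusted p = 0.736). Il7r, the receptor of interleukin-7 and a gene of the T cell marker list, had a genotype gap of -1.71 log2 before and of -2.72 log2 after IL-4, and a difference of -1.01 log2. It was detected on 9 arrays. Its knockout means were 6.04 log2 units in M0 and 5.81 in M2 cells, near the lowest detected values of knockout arrays (5.81 to 6.36). The sizes of its gaps and difference are therefore not exact. Il7r was singled out after its values were seen.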
